A study of Mus musculus with 15 samples.

Results

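The 10 genes described here form the interleukin-6 (IL-6) branch of cytokine signalling and its acute phase targets: the cytokine genes Il6, Il11, Lif and Osm, the receptor gene Osmr, the signalling genes Stat3 and Socs3, and the target genes Serpina3n, Hp and Orm1. They were chosen by name, with earlier results of these data known, and found on the array through the RefSeq transcript that each probe is annotated to. All 10 had a probe, 11 probes in all, out of 20972 named genes on the array, and all 10 passed the filter on dim probes, as did 15834 named genes.

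The mice were female C57BL/6, 7 to 8 weeks old, and whole lung tissue was taken 24 h after the last exposure. Rod-like carbon nanotubes (rCNT) are long, stiff fibres made of rolled carbon sheets. Aspirated rCNT mice received 10 µg a day of rCNT in 50 µl of phosphate-buffered saline (PBS) placed at the back of the throat, on 4 days (4 samples), and their controls received 50 µl of PBS by the same route (PBS, 4 samples). Inhaled rCNT mice breathed an aerosol of 6.2 to 8.2 mg of rCNT per m3 for 4 h a day on 4 days (3 samples), and their controls were untreated (4 samples). Whether a sample came from 1 mouse is not given in the labels, and the scan names of the inhalation arrays speak of pools, so the p-values measure the spread between samples, which may be partly technical. One untreated sample, replicate 1, carries a title that names PBS aspiration while its other labels say untreated and inhalation, and it was kept as untreated. Leaving it out changed none of the calls on the 10 genes given below.

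Cytokines of the IL-6 family bind receptor chains that pair with the shared signalling chain gp130, the product of Il6st. JAK kinases on the receptors then phosphorylate STAT3, which enters the nucleus and switches on target genes. One of these is Socs3, whose protein binds the receptor and shuts the signal down, and others encode acute phase proteins, which are secreted in inflammation mainly by the liver but also by lung epithelium and macrophages. In injured airways IL-6 is made by macrophages, epithelium and fibroblasts.

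RNA was labelled with Cy3 or Cy5 and measured on 14 two-colour Agilent arrays on 3 slides, each sample in its own colour channel. Between 54.6% and 64.7% of spots were well above background in a sample, the median spot intensity was 56.5 to 149.5 units, and no spot of a used channel was saturated. Across genes, replicates correlated at 0.9939 to 0.998. Levels below are log2 normalised intensities, and levels of different genes cannot be compared because each probe has its own brightness. Before logs were taken, 50 units were added to every spot, which makes fold changes of dim probes (Il6, Il11, Lif, Osm and Orm1) smaller than those of bright ones. Slide 1 carried the 8 samples of the aspiration arm, while the inhalation arm was split over slides 2 and 3. The labels give an aerosol concentration but no lung dose for inhalation, so the doses of the routes are not known to match. Route, slide, dose and kind of control thus cannot be told apart in any comparison between the routes. Slide 2 held inhaled rCNT replicate 1 and untreated replicates 1 to 3, and slide 3 held inhaled rCNT replicates 2 and 3 and untreated replicate 4. Inhaled rCNT replicate 2 and untreated replicate 4 were the 2 colours of 1 array.

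All 10 genes were higher in aspirated rCNT lungs than in PBS lungs, by 0.19 to 2.88 on the log2 scale, and 7 of 10 were higher in inhaled rCNT lungs than in untreated lungs, by 0.57 to 0.75. A gene counted as changed when its p from limma, a linear model fitted to every gene across all 15 samples, was below 0.05 after adjustment over the 25239 genes and transcripts tested. By the same rule 20.6% of everything tested was higher and 26.5% lower after aspiration, and 28.4% was higher and 32.5% lower after inhalation. The median log2 fold change of the 10 genes was 0.63 after aspiration, against -0.04 for everything tested, and 0.70 after inhalation, against -0.02. The groups did not overlap for 10 of 10 genes after aspiration (19.2% of everything tested did this in the same direction) and for 6 of 10 after inhalation (25.7%). Il11, Lif and Osm did not pass the test after inhalation. In whole lung RNA, more cells of a type and more RNA per cell cannot be told apart. Within the aspirated rCNT group, replicate 4 had the highest level of 8 of the 10 genes.

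**Figure D1:**
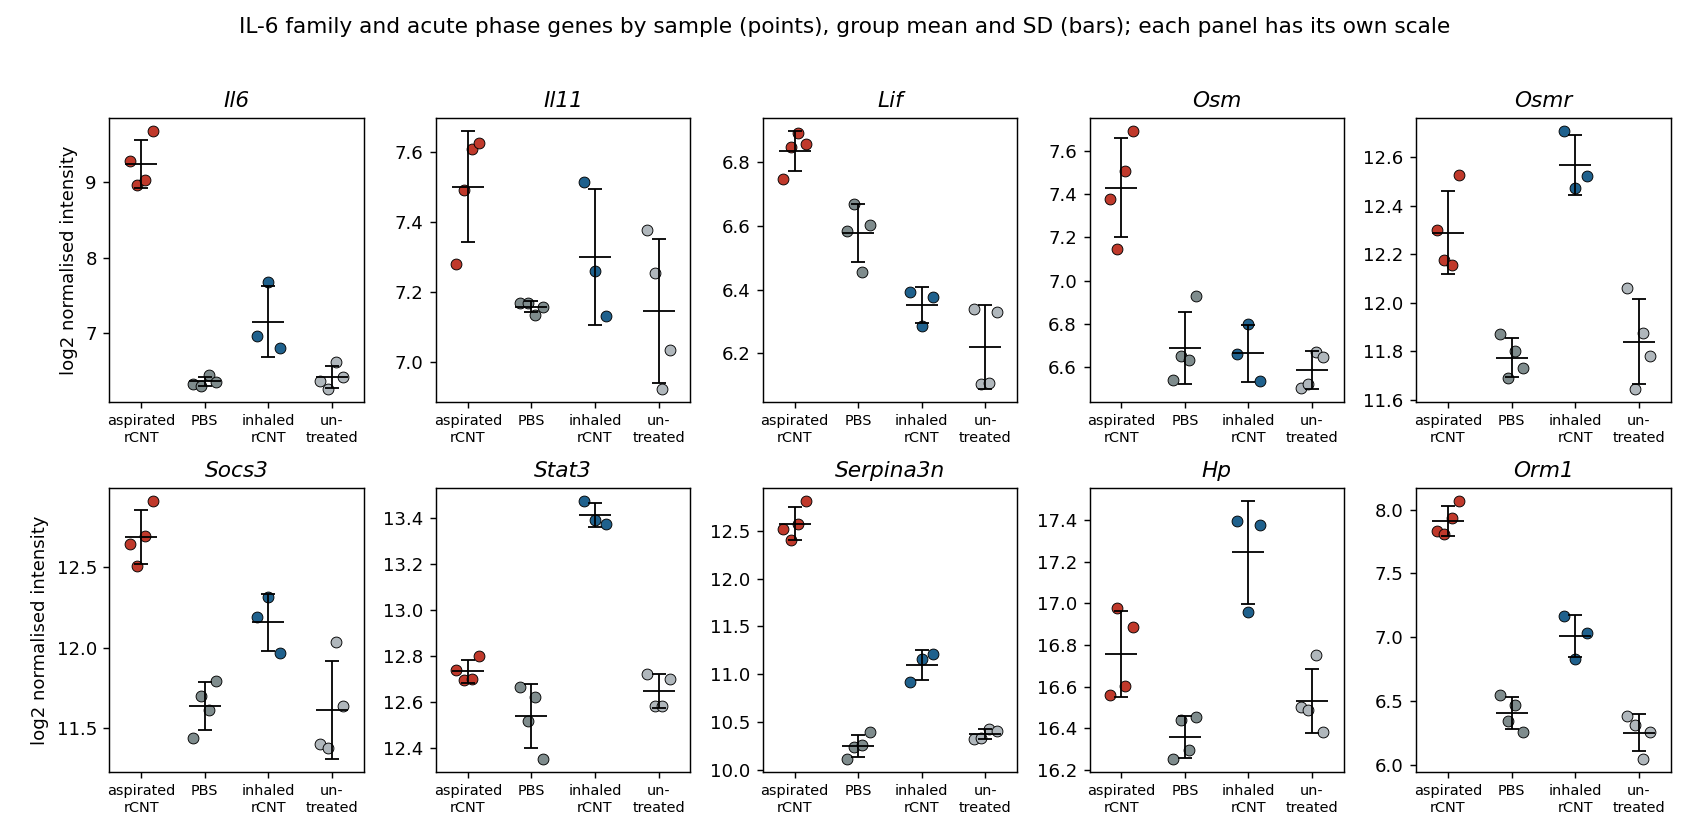
Log2 normalised intensity (vertical axes, each gene on its own scale) of the 10 genes in each sample of the 4 groups, with the group mean (long line) and SD (whiskers). Il6, Serpina3n and Orm1 were highest in all 4 aspirated rCNT samples, with the 3 inhaled rCNT samples between these and both control groups, while Stat3 was highest in the 3 inhaled rCNT samples.

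Among the cytokines Il6, the founding member of the family, moved most. Its level was 9.29, 8.97, 9.04 and 9.68 in aspirated rCNT lungs, against 6.33, 6.31, 6.45 and 6.36 in PBS lungs. Every aspirated rCNT lung was far above every PBS lung. The fold change was 7.37 (log2 2.88 ± 0.17, SE, 4 against 4 samples, limma adjusted p = 1.29e-09). After inhalation Il6 was at 6.97, 7.69 and 6.81 in inhaled rCNT lungs, against 6.37, 6.26, 6.62 and 6.42 in untreated lungs. All 3 inhaled rCNT lungs were above every untreated lung, but replicate 2 was higher than the other two. Il6 rose by 0.75 ± 0.18 (1.68-fold, 3 against 4 samples, limma adjusted p = 0.00189), and by 0.43 (adjusted p = 0.0576) when the array that held inhaled rCNT replicate 2 and untreated replicate 4 was left out. The Il6 probe was well above background in all aspirated and inhaled rCNT lungs but in 1 of 4 PBS lungs and 1 of 4 untreated lungs, so the control levels lie at the floor of the array. On the scanner's own background-subtracted signal, without the added 50 units, the Il6 log2 fold changes were 5.34 after aspiration and 2.42 after inhalation.

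The 250 bases before the Il6 start site are shown because Il6 had the widest range of the 10 genes. The sequence is from RefSeq (mouse build GRCm38.p6, chr5:30012864-30013113, plus strand), and the capitals mark a match to GGGA followed by any base and TTTCC, one form of the site bound by NF-kB, the inflammatory transcription factor known to switch on Il6. The match spans 44 to 35 bases before the start, and the same motif was found on either strand in 0.356% of 32851 mouse promoters of this length.
Il6: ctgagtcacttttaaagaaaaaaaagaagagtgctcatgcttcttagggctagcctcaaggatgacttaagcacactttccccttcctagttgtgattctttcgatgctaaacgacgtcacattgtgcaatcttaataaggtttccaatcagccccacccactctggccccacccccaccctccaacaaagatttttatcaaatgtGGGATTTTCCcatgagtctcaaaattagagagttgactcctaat

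Osm encodes oncostatin M, a cytokine of activated macrophages and neutrophils that acts on epithelium, fibroblasts and endothelium. It was at 7.38, 7.15, 7.50 and 7.69 in aspirated rCNT lungs, against 6.54, 6.65, 6.64 and 6.93 in PBS lungs. The ranges were separate, and Osm rose 1.67-fold (0.74 ± 0.10, limma adjusted p = 1.96e-05), or by 1.73 on the log2 scale of the scanner's own signal. In inhaled rCNT lungs Osm was at 6.66, 6.80 and 6.54, against 6.50, 6.52, 6.67 and 6.65 in untreated lungs, 2 of which were not well above background. These ranges overlapped, and the difference was 0.10 ± 0.11 (limma adjusted p = 0.476).

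Il11, which encodes a family member known for its action on fibroblasts and epithelium, was at 7.28, 7.49, 7.61 and 7.63 in aspirated rCNT lungs, against 7.17, 7.17, 7.14 and 7.16 in PBS lungs. The PBS lungs were nearly alike, and every aspirated rCNT lung was above them. The rise was 0.34 ± 0.10 (1.27-fold, limma adjusted p = 0.0114), and 0.57 on the scanner's own signal. After inhalation the 3 exposed lungs, at 7.51, 7.26 and 7.13, lay among the untreated lungs, at 7.38, 7.25, 6.92 and 7.03, and the difference was 0.14 ± 0.11 (adjusted p = 0.28).

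Lif encodes leukaemia inhibitory factor, a cytokine that signals through Lifr and gp130. Its level was 6.75, 6.85, 6.89 and 6.86 in aspirated rCNT lungs, against 6.58, 6.67, 6.45 and 6.60 in PBS lungs. The groups were separate but close, and Lif rose a little after aspiration (0.26 ± 0.07, 1.20-fold, limma adjusted p = 0.0058), and on the scanner's own signal it was 0.54 and did not pass the test (adjusted p = 0.15). Lif was not well above background in any of the 3 inhaled rCNT or 4 untreated lungs, so no fold change is given for inhalation. Against the floor of those arrays, Lif was at least 1.40-fold higher in aspirated than in inhaled rCNT lungs (adjusted p = 3.46e-05), the floor being the dimmest signal well above background on each array or, where higher, the probe's own signal.

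The receptor gene Osmr, which encodes the oncostatin M receptor chain that pairs with gp130, rose by both routes. Its level was 12.30, 12.17, 12.16 and 12.53 in aspirated rCNT lungs, against 11.87, 11.69, 11.80 and 11.73 in PBS lungs. In inhaled rCNT lungs it was 12.71, 12.47 and 12.52, against 12.06, 11.64, 11.87 and 11.78 in untreated lungs. Neither pair of groups overlapped. The rise was 0.52 ± 0.09 after aspiration (1.43-fold, limma adjusted p = 0.000118) and 0.71 ± 0.09 after inhalation (1.63-fold, adjusted p = 7.79e-06), while Osm passed the test only after aspiration. With arrays centred on their medians in place of quantile normalisation, the Osmr rise after inhalation was 0.30 and missed the threshold (adjusted p = 0.0992).

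Of 7 other receptors of the family, 4 fell and 1 rose after aspiration (3 and 2 with cyclic loess, 3 and 1 with median centring). After inhalation 2 fell and 2 rose (2 and 3 with cyclic loess, 4 and 1 with median centring). Of everything tested, 20.6% was higher and 26.5% lower after aspiration. After inhalation 28.4% was higher and 32.5% lower, shares close to those of the 7 receptors. Il6ra, the IL-6 binding chain, averaged 12.37 ± 0.12 in aspirated rCNT lungs against 12.86 ± 0.14 in PBS lungs (SD, n = 4 each), and 13.24 ± 0.14 in inhaled rCNT lungs (n = 3) against 12.81 ± 0.16 in untreated lungs (n = 4). It thus fell by 0.49 after aspiration (limma adjusted p = 6.21e-05) and rose by 0.45 after inhalation (adjusted p = 0.000185), and the difference of these effects was -0.94 ± 0.11 (adjusted p = 3.52e-06). With median centring the Il6ra value after inhalation was 0.03 (adjusted p = 0.876). The difference of the Il6ra effects was then -0.46 and missed the threshold (adjusted p = 0.0572). Il6st, the gp130 gene, fell by 0.21 after aspiration (adjusted p = 0.0421, but 0.0636 with cyclic loess and 0.433 with median centring) and by 0.63 after inhalation (adjusted p = 1.57e-05). Il11ra1, the interleukin-11 receptor chain, fell by 0.47 after aspiration (adjusted p = 2.2e-05), and the inhalation value of 0.11 did not pass the test (adjusted p = 0.187), turning to -0.34 with median centring (adjusted p = 0.0062). Lifr, the leukaemia inhibitory factor receptor, fell by 0.83 after aspiration on its brightest probe (adjusted p = 1.97e-07), against 0.53 and 0.14 lower on its other 2 probes, of which the second did not pass the test (adjusted p = 0.134). After inhalation Lifr was at -0.10 on the brightest probe (adjusted p = 0.296), at -0.40 on the second (adjusted p = 0.00266) and at -0.70 on the third (adjusted p = 1.23e-06), so the count of receptors rests on the choice of probe. Il31ra, a receptor chain for interleukin-31, rose by 1.02 after aspiration (adjusted p = 3.32e-07), its probe being well above background in 2 of 4 PBS lungs. After inhalation the ciliary neurotrophic factor receptor gene Cntfr rose by 0.43 (adjusted p = 0.0366) and the interleukin-27 receptor gene Il27ra fell by 0.49 (adjusted p = 0.000108). The Cntfr probe was well above background in 2 of 4 untreated lungs. Untreated replicate 4, at 7.36, lay above all 3 inhaled rCNT lungs, at 7.23, 7.24 and 7.23.

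Socs3, the feedback inhibitor, rose by both routes. It was at 12.65, 12.51, 12.69 and 12.91 in aspirated rCNT lungs, against 11.44, 11.70, 11.61 and 11.79 in PBS lungs. Every aspirated rCNT lung was clearly above every PBS lung, a rise of 2.08-fold (1.06 ± 0.12, limma adjusted p = 4.01e-06). Socs3 was at 12.19, 12.32 and 11.97 in inhaled rCNT lungs, against 11.40, 11.37, 12.03 and 11.63 in untreated lungs. Untreated replicate 3 was above the lowest inhaled rCNT lung, so these ranges overlapped. The mean difference passed the test (0.57 ± 0.14, 1.49-fold, limma adjusted p = 0.00174), but fell to 0.20 (adjusted p = 0.286) with median centring.

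The 250 bases before the Socs3 start site are shown because Socs3 is a textbook STAT3 target and was the only one of the 7 genes with a promoter in the RefSeq table (8 promoters, Il11 having 2) to hold a STAT motif in this window. The sequence is on the minus strand of chr11:117969367-117969616 (GRCm38.p6), and the capitals mark the match to TTCNNNGAA, a motif that reads the same on both strands. It spans 154 to 146 bases before the start, and 7.02% of the 32851 promoters hold such a match.
Socs3: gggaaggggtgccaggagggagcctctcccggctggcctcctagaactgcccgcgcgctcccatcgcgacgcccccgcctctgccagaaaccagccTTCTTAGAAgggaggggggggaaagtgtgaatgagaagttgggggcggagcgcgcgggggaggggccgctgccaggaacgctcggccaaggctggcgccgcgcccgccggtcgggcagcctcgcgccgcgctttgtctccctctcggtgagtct

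Stat3, the transcription factor of the pathway, had 2 probes that gave different sizes. On the brighter one, spotted 10 times on the array, Stat3 was at 12.74, 12.69, 12.70 and 12.80 in aspirated rCNT lungs, against 12.66, 12.52, 12.62 and 12.35 in PBS lungs. These groups were separate but close, with a rise of 0.19 ± 0.06 (1.14-fold, limma adjusted p = 0.0147). Without PBS replicate 4, the lowest PBS lung, the rise was 0.14 and did not pass the test (adjusted p = 0.0607). Inhaled rCNT lungs had Stat3 levels of 13.47, 13.39 and 13.37, against 12.72, 12.58, 12.58 and 12.70 in untreated lungs. All 3 inhaled rCNT lungs were above every other sample of the study, and the rise was 0.75 ± 0.07 (1.68-fold, limma adjusted p = 1.06e-07). On the second probe, annotated to another Stat3 transcript, the rise was 0.18 after aspiration (adjusted p = 0.0269) and 0.21 after inhalation (adjusted p = 0.0106). The larger rise after inhalation was therefore seen on 1 of the 2 Stat3 probes, and with median centring it was 0.33 on that probe (adjusted p = 0.0275).

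Serpina3n encodes a secreted serine protease inhibitor of the antichymotrypsin family and is induced in many inflamed tissues. Its level was 12.52, 12.41, 12.57 and 12.81 in aspirated rCNT lungs, against 10.11, 10.24, 10.25 and 10.39 in PBS lungs. The groups were far apart and each varied little, a rise of 5.02-fold (2.33 ± 0.09, limma adjusted p = 1.21e-11). In inhaled rCNT lungs it was 10.92, 11.16 and 11.21, against 10.33, 10.33, 10.42 and 10.41 in untreated lungs. These ranges were separate too, and the rise was 1.66-fold (0.73 ± 0.10, limma adjusted p = 8.2e-06). Mouse Serpina3 genes form a cluster of close copies, and whether the Serpina3n probe also picks up other members was not tested.

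Orm1 encodes an orosomucoid, an acute phase plasma protein that binds lipids and drugs. It was at 7.84, 7.81, 7.94 and 8.07 in aspirated rCNT lungs, against 6.54, 6.34, 6.47 and 6.26 in PBS lungs. In inhaled rCNT lungs it was 7.16, 6.83 and 7.04, against 6.38, 6.31, 6.04 and 6.26 in untreated lungs. Both comparisons were free of overlap, although the probe was well above background in 2 of 4 PBS lungs and 1 of 4 untreated lungs. Orm1 rose 2.85-fold after aspiration (1.51 ± 0.08, limma adjusted p = 3.16e-10) and 1.66-fold after inhalation (0.74 ± 0.08, adjusted p = 1.77e-06). On the scanner's own signal these log2 fold changes were 3.25 and 2.55. The near-identical gene Orm2 averaged 8.00 ± 0.20 in aspirated rCNT lungs against 6.48 ± 0.18 in PBS lungs, and 7.14 ± 0.14 in inhaled rCNT lungs against 6.38 ± 0.14 in untreated lungs, and the Orm1 and Orm2 probes may read each other's transcripts.

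Hp encodes haptoglobin, which binds free haemoglobin and is made in lung as well as liver. Its level was 16.56, 16.98, 16.61 and 16.89 in aspirated rCNT lungs, against 16.25, 16.44, 16.29 and 16.45 in PBS lungs. The lowest aspirated rCNT lung was just above the highest PBS lung, and Hp rose 1.32-fold (0.40 ± 0.11, limma adjusted p = 0.00837). The 3 inhaled rCNT lungs had 17.39, 16.96 and 17.38, against 16.50, 16.49, 16.75 and 16.38 in untreated lungs. Here too the ranges were separate, with a rise of 1.62-fold (0.70 ± 0.12, limma adjusted p = 0.000132).

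The design asks how the effects of the 2 routes compare, and this difference was tested itself, as the aspiration log2 fold change minus the inhalation one. It passed the test for 6 of the 10 genes, 5 with a more positive effect after aspiration and 1 with a more negative one, where 28.5% of everything tested passed in each direction. Il6 differed most, by 2.13 ± 0.24 (limma adjusted p = 2.6e-06). Serpina3n differed by 1.60 ± 0.13 (adjusted p = 8.09e-08), Orm1 by 0.77 ± 0.11 (adjusted p = 2.93e-05, but 0.70 and 0.101 on the scanner's own signal) and Osm by 0.64 ± 0.15 (adjusted p = 0.0017). For Socs3 the difference of 0.49 ± 0.18 was close to the threshold (adjusted p = 0.0339), and it missed the threshold without any 1 of 6 samples (aspirated rCNT replicate 4, PBS replicates 1 and 2, inhaled rCNT replicate 3, untreated replicates 3 and 4), with a lowest value of 0.37. Stat3 ran the other way, at -0.55 ± 0.09 (adjusted p = 6.67e-05), but its second probe gave -0.04 (adjusted p = 0.741), and median centring gave -0.08 on the first (adjusted p = 0.718). The differences for Hp (-0.30 ± 0.17), Osmr (-0.19 ± 0.13) and Il11 (0.20 ± 0.15) did not pass, and none is given for Lif, which was below background in both groups of the inhalation comparison. With cyclic loess the Socs3 difference was 0.38 and missed the threshold (adjusted p = 0.103), while that of Hp was -0.80 and passed (adjusted p = 0.000143). The Hp difference also passed at -0.46 without inhaled rCNT replicate 2 and at -0.39 without untreated replicate 3.

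**Figure D2:**
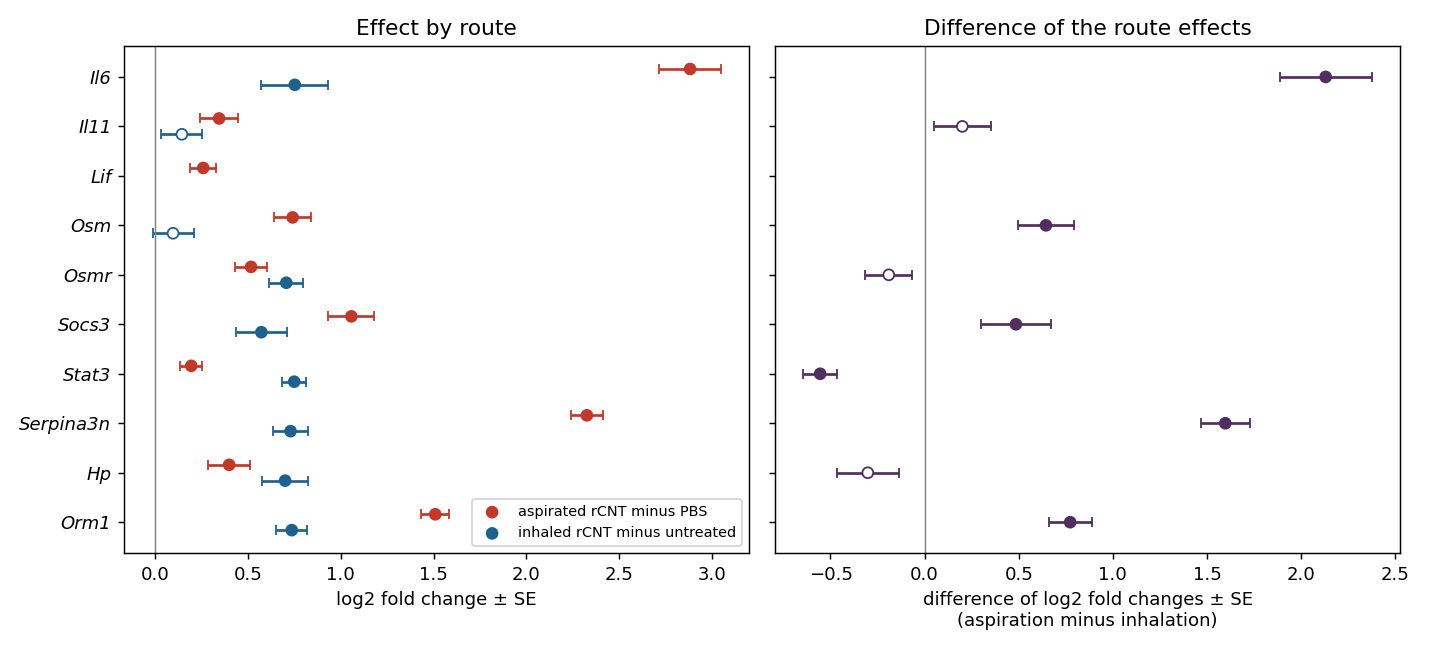
Left, log2 fold change (horizontal axis) of each gene with its SE, in red for aspirated rCNT minus PBS and in blue for inhaled rCNT minus untreated, and right, the difference of the route effects (aspiration minus inhalation) with its SE. Filled points passed an adjusted p of 0.05 and open points did not, and the points for inhalation lie between 0.57 and 0.75 for the 7 genes that passed while those for aspiration spread between 0.19 and 2.88 (Lif has no point for inhalation or for the difference, both groups of the inhalation comparison being below background).

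The slides offered a check of the inhalation effects, since slides 2 and 3 each held both inhaled rCNT and untreated samples. With slide as a block the 7 genes that rose kept their rise, with Il6 at 0.69 (limma adjusted p = 0.00827), Socs3 at 0.57 (adjusted p = 0.00521) and the other 5 between 0.67 and 0.79. Within slide 2 the same 7 genes were higher by 0.57 to 0.81, and within slide 3 by 0.42 to 0.83. Il6 missed the threshold within either slide (0.60, adjusted p = 0.111, on slide 2, and 0.79, adjusted p = 0.0553, on slide 3), and Socs3 did so on slide 3 (0.42, adjusted p = 0.161). One arm had a single sample on each slide, and its spread was taken from the other groups. With median centring, which shifted the median of everything tested to -0.15, all 7 values after inhalation stayed above 0, at 0.66 for Il6 and 0.59 for Orm1, whose probes are dim, and at 0.20 to 0.40 for the other 5.

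Levels in both kinds of control were close. Of the 10 genes only Lif differed between PBS and untreated lungs, being at least 1.16-fold higher in PBS lungs (limma adjusted p = 0.000353), while 26.3% of everything tested was higher and 33.1% lower in this comparison, which runs across slides. With median centring Lif missed the threshold (adjusted p = 0.0882). The other 9 differences lay between -0.17 and 0.15, and without untreated replicate 2 that of Orm1 passed at 0.20 (adjusted p = 0.0386). By mean level, Il6, Socs3, Serpina3n and Orm1 stood in the order aspirated rCNT, inhaled rCNT, controls, with each step down to the nearest control group past the test and the 2 control groups not separated. The step for Socs3 from inhaled rCNT to PBS lungs was 0.55, or 0.03 with median centring. Osmr, Hp and, on its brighter probe, Stat3 stood highest in inhaled rCNT lungs, followed by aspirated rCNT lungs and the controls. On the second Stat3 probe the mean was 8.44 in aspirated rCNT lungs and 8.33 in inhaled rCNT lungs. Against PBS lungs, 7 of the 10 genes were higher and 1, Lif, was lower in inhaled rCNT lungs (27.5% of everything tested higher and 27.7% lower). Lif was at least 1.17-fold higher in PBS lungs, and missed the threshold without inhaled rCNT replicate 2 (adjusted p = 0.0573). Set directly against each other across slides, aspirated rCNT lungs had lower Stat3 (-0.66, adjusted p = 4.11e-07), Hp (-0.47, adjusted p = 0.00326) and Osmr (-0.26, adjusted p = 0.0247) than inhaled rCNT lungs, where 27.9% of everything tested was higher and 33.4% lower. The second Stat3 probe gave 0.13 (adjusted p = 0.101). These 3 differences did not pass with arrays centred on their medians, and that for Osmr then turned to 0.31 (adjusted p = 0.0837). The Osmr difference also missed the threshold without aspirated rCNT replicate 2 (-0.18) or 3 (-0.24) and without inhaled rCNT replicate 1 (-0.21) or 2 (-0.26). For Stat3 and Hp, aspirated rCNT levels overlapped with untreated levels, a pair that was not tested.

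Beside the 10 genes, 74 further genes of the pathway were followed in 6 lists, and 65 of them passed the filter. These lists too were chosen with earlier results of these data known. Of the 65, 38 rose and 13 fell after aspiration, and 30 rose and 18 fell after inhalation. By the same rule 20.6% of everything tested was higher and 26.5% lower after aspiration, and 28.4% and 32.5% after inhalation. Among the other ligands of the family 3 of 6 rose and 2 fell after aspiration, and 1 rose and 3 fell after inhalation. Ebi3, a subunit of interleukin-27 and interleukin-35, averaged 10.02 ± 0.09 in aspirated rCNT lungs against 9.15 ± 0.03 in PBS lungs, and 8.83 ± 0.09 in inhaled rCNT lungs against 9.29 ± 0.19 in untreated lungs. It thus rose by 0.88 after aspiration (limma adjusted p = 3.28e-07) and fell by 0.47 after inhalation (adjusted p = 0.000286). Il27, the partner subunit, rose by 0.26 after aspiration (adjusted p = 0.0182), and Ctf1, which encodes cardiotrophin 1, fell by 0.21 (adjusted p = 0.00513). Cntf, the ciliary neurotrophic factor gene, rose by 0.32 after inhalation on its brighter probe (adjusted p = 0.00183), while its other probe gave 0.04 (adjusted p = 0.698). With median centring the fall of Ctf1 after aspiration did not pass.

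Of 12 JAK and STAT genes and inhibitors, 6 were higher and 2 lower after aspiration. After inhalation 1 was higher and 6 were lower (0 and 10 with median centring). Of everything tested, 20.6% was higher and 26.5% lower after aspiration. After inhalation these shares were 28.4% and 32.5% (15.2% and 40.1% with median centring). The median log2 fold change of the 12 genes was 0.16 after aspiration and -0.19 after inhalation. Socs1, an inhibitor of JAK kinases induced mainly by interferons, averaged 10.36 ± 0.28 in aspirated rCNT lungs against 8.68 ± 0.13 in PBS lungs, and 8.67 ± 0.10 in inhaled rCNT lungs against 9.37 ± 0.27 in untreated lungs. It rose by 1.69 ± 0.14 after aspiration (limma adjusted p = 7.75e-08) and fell by 0.70 ± 0.15 after inhalation (adjusted p = 0.0008), unlike its relative Socs3. Cish, a feedback inhibitor of STAT5 signalling, rose by 0.71 after aspiration (adjusted p = 0.000151), Stat5b fell by 0.48 (adjusted p = 1.65e-05), and Ptpn11, which encodes the phosphatase SHP-2, fell by 0.17 (adjusted p = 0.04, but 0.563 with median centring). After inhalation Socs2 rose by 0.49 (adjusted p = 9.81e-05, but 0.11 and 0.517 with median centring), while Ptpn6, which encodes the phosphatase SHP-1, fell by 0.71 (adjusted p = 0.00207).

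Of 14 genes known to be induced by STAT3, 8 rose and 2 fell after aspiration, and 10 rose and 3 fell after inhalation, with medians of 0.42 and 0.41. The count after inhalation depended on the normalisation: it was 11 higher and 2 lower with cyclic loess, and 2 higher and 3 lower with median centring, where the median of the list was -0.04. Shares of everything tested were 20.6% higher and 26.5% lower after aspiration, and 28.4% and 32.5% after inhalation. With median centring the shares after inhalation were 15.2% and 40.1%. Timp1, an inhibitor of matrix metalloproteinases, averaged 14.46 ± 0.18 in aspirated rCNT lungs against 11.25 ± 0.28 in PBS lungs, and 11.82 ± 0.23 in inhaled rCNT lungs against 10.14 ± 0.08 in untreated lungs. It rose by 3.21 ± 0.12 after aspiration (limma adjusted p = 8.17e-12) and by 1.71 ± 0.13 after inhalation (adjusted p = 1.97e-08). Lrg1, a secreted glycoprotein of inflamed tissue, rose by 1.55 after aspiration (adjusted p = 2.45e-09) and by 0.91 after inhalation (adjusted p = 1.56e-06). The falls were Vegfa, the endothelial growth factor (-0.82, adjusted p = 4.39e-06), and the survival gene Bcl2l1 (-0.42, adjusted p = 0.0121) after aspiration. A second Bcl2l1 probe gave -0.27 and did not pass (adjusted p = 0.0557). After inhalation the largest falls of the list were those of the adhesion gene Icam1 (-0.70, adjusted p = 6.78e-05) and the growth regulator Myc (-0.52, adjusted p = 0.00168). With quantile normalisation, each of these named falls was a rise by the other route. Vegfa rose by 0.37 (adjusted p = 0.007) and Bcl2l1 by 0.78 (adjusted p = 0.000144) after inhalation. The Bcl2l1 ranges overlapped, with untreated replicate 3 at 14.59 and inhaled rCNT replicate 1 at 14.55. With median centring 2 of the 14 genes rose after inhalation, so the rises of Timp1, Lrg1, Vegfa and Bcl2l1 did not all pass. Icam1 rose by 0.39 (adjusted p = 0.00597) and Myc by 0.76 (adjusted p = 3.88e-05) after aspiration.

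Most acute phase genes other than the 3 described above rose by both routes. Of 24 listed, 19 passed the filter, and 14 rose by each route, with 2 falling after aspiration and 4 after inhalation (13 and 11 rose with median centring). Everything tested had 20.6% higher and 26.5% lower after aspiration, and 28.4% and 32.5% after inhalation. Fga, Fgb, Apcs, Crp and A2m, which in mice are made mainly by the liver, did not pass the filter. Saa3, a serum amyloid A gene made by macrophages and epithelium, averaged 14.87 ± 0.46 in aspirated rCNT lungs against 9.86 ± 0.16 in PBS lungs, and 12.19 ± 0.37 in inhaled rCNT lungs against 7.77 ± 0.21 in untreated lungs. Saa1 rose by 4.56 ± 0.17 after aspiration (limma adjusted p = 9.29e-12) and by 2.62 ± 0.18 after inhalation (adjusted p = 9.61e-09). Hamp, which encodes the iron hormone hepcidin, fell by 0.85 after aspiration (adjusted p = 0.00424) and by 0.62 after inhalation (adjusted p = 0.0327). In untreated replicate 3 Hamp was not well above background, at 6.63, and lay below inhaled rCNT replicate 2, at 7.12. Orm3, the third orosomucoid gene, fell by 0.18 after aspiration (adjusted p = 0.0319), and Serping1, the C1 inhibitor gene, fell by 0.39 after inhalation (adjusted p = 6.02e-05). Of 10 Serpina3 paralogs 7 were tested, and 6 rose and 1 fell after aspiration while 2 rose after inhalation. Serpina3f rose by 2.38 (adjusted p = 4.03e-10) and Serpina3i by 2.01 (adjusted p = 6.73e-08) after aspiration, and Serpina3a was the one that fell (-0.42, adjusted p = 0.000411). After inhalation Serpina3m rose by 0.86 (adjusted p = 3.15e-06) and Serpina3f by 0.64 (adjusted p = 0.000656), which its second probe, at 0.18, did not share (adjusted p = 0.255). A second Serpina3i probe rose by 0.45 after inhalation (adjusted p = 0.0146), so the count of paralogs rests on the choice of probe. Between the controls, 5 of the 7 paralogs were lower in PBS than in untreated lungs (33.1% of everything tested), across slides.

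**Figure D3:**
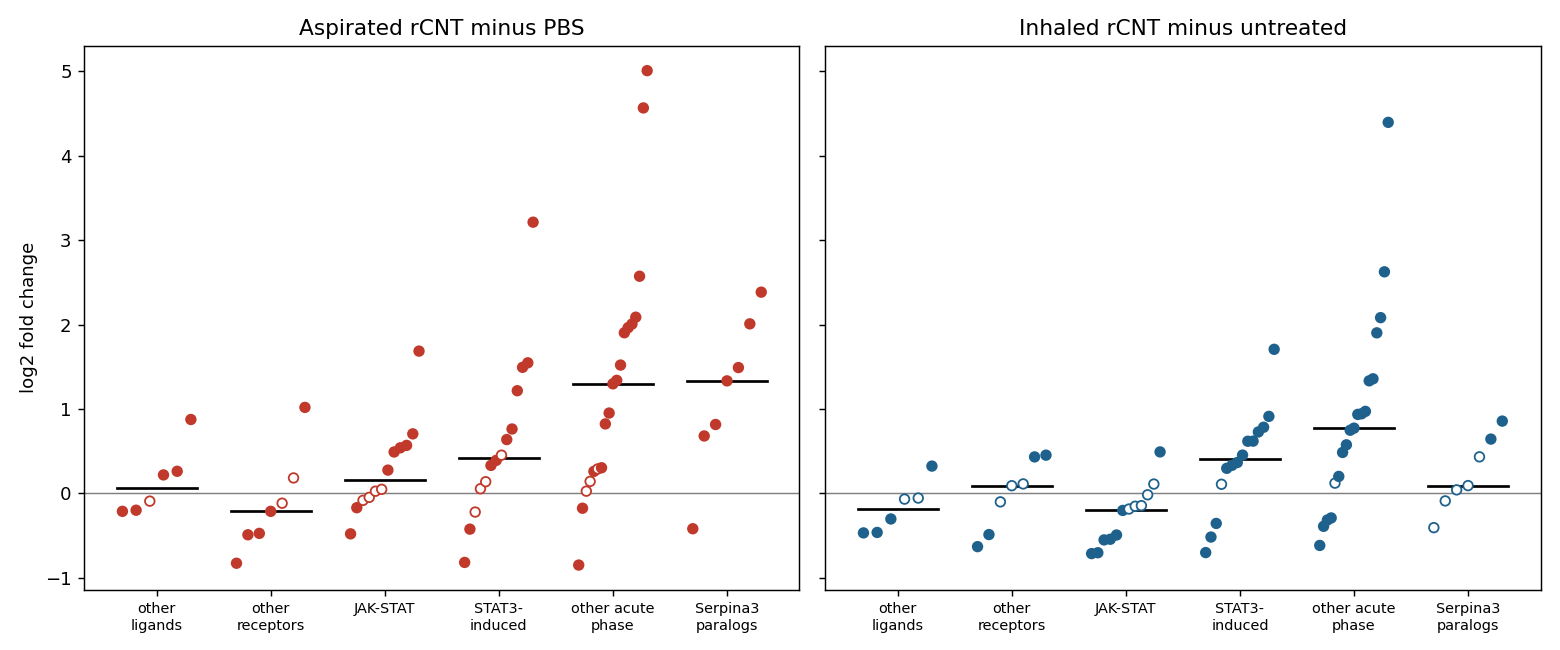
Log2 fold change (vertical axis) of the 65 further pathway genes in 6 lists, for aspirated rCNT minus PBS (left) and inhaled rCNT minus untreated (right), with filled points for genes past an adjusted p of 0.05, open points for the others and a black line at each list's median. The acute phase and Serpina3 lists lie highest after aspiration (medians 1.30 and 1.33), and after inhalation the acute phase list stays highest at 0.77 while the Serpina3 list is at 0.09.

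Marker genes of several cell types moved in the same samples. Of everything tested, 20.6% was higher and 26.5% lower after aspiration, and 28.4% and 32.5% after inhalation. Counts near these shares do not set a cell type apart. Of 8 monocyte and macrophage markers tested 6 rose and 1 fell after aspiration, with a summed normalised intensity of 48610 to 56236 in aspirated rCNT lungs against 31781 to 35889 in PBS lungs. After inhalation 2 rose and 3 fell, and the sums were 26393 to 30274 in inhaled rCNT lungs against 27587 to 30353 in untreated lungs. Of 5 eosinophil markers 4 rose after aspiration, with sums of 3348 to 4798 in aspirated rCNT lungs against 1996 to 2310 in PBS lungs, and after inhalation 1 rose and 2 fell (1039 to 1102 in inhaled rCNT lungs against 1744 to 2036 in untreated lungs), Prg2 being below background in both groups. Neutrophil marker sums overlapped after aspiration (88995 to 112260 in aspirated rCNT lungs against 97226 to 118040 in PBS lungs), with 3 of 8 markers higher and 1 lower. After inhalation 1 neutrophil marker was higher and 4 were lower, while the sums leaned higher and overlapped. They were 88470 to 101360 in inhaled rCNT lungs against 83815 to 90602 in untreated lungs. Endothelial markers fell by both routes, 6 of 7 after aspiration and 7 of 7 after inhalation. Of 7 fibroblast markers 3 rose and 3 fell after aspiration and 7 fell after inhalation (4 with cyclic loess). The fibroblast sums were 165020 to 190770 in aspirated rCNT lungs against 98312 to 106840 in PBS lungs. They were 82836 to 91199 in inhaled rCNT lungs against 106140 to 120730 in untreated lungs. Of 8 T and B cell markers none passed the test after aspiration while 1 rose and 6 fell after inhalation. The part of these cell types in the levels of the 10 genes was not tested. Of 7 hepatocyte markers 1, Ahsg, rose (8.72 in aspirated rCNT lungs against 7.45 in PBS lungs, limma adjusted p = 7.14e-07) and 2 fell after aspiration, and 0 rose and 1 fell after inhalation. Alb, the albumin gene, was not well above background in any aspirated or inhaled rCNT lung, and the sum of the 7 markers, to which the bright Apoa2 probe adds most, was 3050 to 3382 in aspirated rCNT lungs against 3718 to 5385 in PBS lungs, and 4675 to 5774 in inhaled rCNT lungs against 4282 to 5430 in untreated lungs. All 6 lung epithelial markers passed the filter, and 4 of them fell after aspiration. After inhalation 2 fell and 0 rose, against 1 and 2 with cyclic loess and 5 and 0 with median centring.

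For the 4 genes whose group means spanned at least 1 log2 unit, the genes with the most similar levels over the 15 samples were looked up, likeness being the root mean square difference of centred log2 levels. Closest to Il6 were the macrophage lectin gene Cd209e (0.20), the cell fusion gene Dcstamp (0.24) and the macrophage elastase gene Mmp12 (0.25). Closest to Serpina3n were the mitotic kinesin gene Kif20a (0.15), Serpina3f (0.17) and the complement factor I gene Cfi (0.17). Orm1 was nearest to the spindle checkpoint gene Mad2l1 (0.11), the nuclear lamin gene Lmnb1 (0.11) and the DNA replication gene Gins1 (0.13). Socs3 was nearest to the kinetochore gene Knl1 (0.16), to Kbtbd6 (0.17) and to the tight junction gene Cldn2 (0.17). These are descriptions over 4 groups and are given without a test.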

How the data were processed

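Lung RNA from 15 samples was hybridised to 14 Agilent two-colour arrays, and scans were quantified with Agilent Feature Extraction 11.0.1.1, per the file headers, on an array design annotated to mouse build mm9. The deposited scanner files give median spot and background intensities for each channel, as linear intensity, and each sample was read from the channel of its own dye. The deposited series table of log2 values was compared with these intensities and correlated with them at 0.9975 or above in each sample. Its centring is not stated, and it was used only as an alternative. Spots that are controls or outliers were left out. Intensities were corrected with normexp (offset 50), quantile-normalised and taken to log2, spots of a probe were averaged, and probes well above background in at least 3 samples were kept (34271 of 55681). Of 29123 probes with a RefSeq accession 27656 were matched to a symbol, through a table of assembly GRCm38.p6. A gene was represented by its brightest probe that passed the filter.

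All comparisons came from 1 fit with group and dye as terms over 15 samples (lmFit and eBayes of limma 3.58.1, R 4.3.3, two-sided, Benjamini-Hochberg over 25239 genes and transcripts). Scripts were tested on simulated data. Upstream sequences were searched with Python 3.11.15. Alternatives were median centring, cyclic loess, no background correction, the scanner's processed signal, the deposited series table, no dye term, only the samples of a route, a variance trend, other filters, other probe rules, array weights, slide and replicate blocks, single slides, leaving out single samples and, added after seeing the data, leaving out the array shared by 2 samples. Beside the 10 genes and 4 receptor genes, the text names, for each list and route, up to 2 largest rises and 2 largest falls that passed the test (1 such gene is not reported here), and for genes spanning at least 1 log2 unit the 3 most alike. The genes and lists were chosen with earlier results of these data known. Same-numbered samples were not paired.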

Additional observations from a re-analysis of the deposited data

Results flagged for a closer look

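For 6 of the 10 genes the effect of the nanotubes differed between the routes when the difference itself was tested with limma. Of everything tested, 28.5% passed in each direction, so the count of 6 does not set these genes apart. The difference, aspiration minus inhalation on the log2 scale, was 2.13 for Il6, 1.60 for Serpina3n, 0.77 for Orm1, 0.64 for Osm and 0.49 for Socs3, and -0.55 for Stat3. Beside these differences, all aspiration samples lay on slide 1 and all inhalation samples on slides 2 and 3. The controls were PBS for aspiration and untreated for inhalation, and no lung dose is given for inhalation. Slide, kind of control and dose cannot be told apart from the route. The Stat3 difference was -0.04 on its second probe, and the Socs3 difference kept its call in 20 of 29 alternatives. No single sample stood apart within its group by Dixon's rule for any of the 10 genes, in 30 groups of 4 examined, where chance alone would flag about 1 in 20. The inhaled rCNT group, with 3 samples, was not examined in this way.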

How the results depend on the processing

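Under every alternative that kept them, Il6, Il11, Osm, Osmr, Socs3, Serpina3n, Hp and Orm1 stayed higher after aspiration and past the limma threshold, and Stat3, Serpina3n, Hp and Orm1 did so after inhalation. Median centring changed most: it moved the median of all genes to -0.15 for inhalation, 0.14 for the route difference and -0.29 for inhaled rCNT minus PBS, and the shares called to 15.2% higher and 40.1% lower after inhalation (28.4% and 32.5% with quantile normalisation). With it, 0 genes had a more negative effect after aspiration (Stat3 at -0.08, adjusted p = 0.718), 0 were higher and 1 lower (Hp, -0.36) in PBS than in untreated lungs, 0 were lower in inhaled rCNT than in PBS lungs, and 0 were lower in aspirated than in inhaled rCNT lungs, where Osmr reversed to 0.31. After inhalation Osmr (0.30, adjusted p = 0.0992) and Socs3 (0.20) then missed the threshold, as did Stat3 after aspiration (0.25, adjusted p = 0.0882), Il11ra1 reversed to -0.34, and of the 65 further genes 7 fell after aspiration and 17 rose after inhalation, where 19 rose within slide 2. When a probe had to be above background in every sample, 6 of the 10 genes were left: 6 rose after aspiration, 2 had a more positive effect after aspiration, 0 were higher in PBS than in untreated lungs, 0 lower in inhaled rCNT than in PBS lungs, and 2 higher in aspirated than in inhaled rCNT lungs, the fall in counts following from fewer genes. With cyclic loess 2 genes had a more negative effect after aspiration, Hp joining at -0.80, and with the processed signal 2 were higher in PBS than in untreated lungs, Orm1 joining at 0.89, while the Orm1 route difference of 0.70 missed the threshold (adjusted p = 0.101). Leaving out single samples gave 1 to 2 genes with a more negative effect (2 without inhaled rCNT replicate 2 or untreated replicate 3, each time with Hp), 1 to 2 higher in PBS than in untreated lungs (2 without untreated replicate 2), and 0 to 1 lower in inhaled rCNT than in PBS lungs (0 without inhaled rCNT replicate 2, and 0 without the shared array). The Lifr route difference reversed to 0.56 with the median over its probes. With replicate number as a block, the Socs3 route difference was 0.43 (adjusted p = 0.0869) and no other call of the 10 genes on the effects of either route or their difference changed; same-numbered samples deviated together with correlations of -0.14 to 0.29, so the numbers were not taken as pairs. Where a cause is not named above, the cause was not tested. Signal limits Il6, Orm1, Osm and Lif, whose probes were near background in controls.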
